A study of Homo sapiens with 6 samples.

Results

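Pyroptosis and necroptosis are forms of programmed cell death in which the plasma membrane is opened by a pore. In pyroptosis, sensors such as NLRP3 assemble an inflammasome with the adaptor ASC (encoded by Pycard) and caspase-1, which cleaves the cytokines IL-1β and IL-18 and the pore former gasdermin D. Caspase-11, encoded by Casp4 in the mouse, cleaves gasdermin D directly after it binds bacterial lipopolysaccharide in the cytosol. In necroptosis, the kinase RIPK3 receives a signal from RIPK1, from TRIF or from the nucleic acid sensor ZBP1 and phosphorylates MLKL, which then disrupts the membrane. Tumour cells often silence RIPK3 or ASC, and many of the genes of both pathways respond to interferon.

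The genes described here are 10 listed members of these pathways, Nlrp3, Pycard, Casp1, Casp4, Casp12, Gsdmd, Mlkl, Ripk3, Zbp1 and Il18, taken as the rows of a count table of 22989 genes whose symbol equals the listed one. All 10 were found in the table. The list was drawn up from the pathways, with earlier results of the same data known.

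The study asked how the lncRNA LINC00115 maintains the properties of breast cancer stem-like cells (BCSC). The series holds 3 RNA-seq libraries labelled LINC00115 KD, in which a short hairpin RNA (sh115) targets LINC00115, and 3 labelled WT. Both groups were described as MDA-MB-231 PTX-resistant BCSC, that is, paclitaxel-resistant cells of a human triple-negative breast cancer line that were sorted for high aldehyde dehydrogenase activity with dead cells gated out. The hairpin was delivered by infection and puromycin selection. The labels call the controls WT, and the paper writes of a control shRNA elsewhere. If the controls were not infected, the infection and the knockdown cannot be told apart. The number of clones and of separate cultures behind the libraries is not stated in the sources used here.

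The totals lay between 36979221 and 38799331 counts. The table lists its genes by mouse symbols, although the line is human. Of these, 5783 have Gm or Rik names, which belong to mouse genes, and genes that humans lack, such as Naip5, Naip6, Nlrp1b, Serpinb1b and Kap, have counts. The names are thus those of mouse gene models. Among the named genes that humans lack, Kap had 0 counts in each WT library and 311 to 466 in KD. Naip5 had 9 to 24 counts in WT and 90 to 118 in KD. The species of the counted reads themselves cannot be settled from the table. Whether a value is that of the human or of the mouse gene is therefore open for every value given here. Symbols are printed as the table gives them. The table holds 0 rows named LINC00115, so the knockdown could not be checked and every direction rests on the labels. Vim and Cd44, high in this line, were abundant (3418 and 911 normalized CPM in WT), and so were the keratins Krt8 (472 in WT and 752 in KD) and Krt18 (129 and 236). Cd24a was abundant too (279 in WT and 155 in KD). Egfr stood at 5.75 in WT and 9.31 in KD, and Erbb2 at 17.0 and 27.6. Of the hormone receptor genes, Esr1 had 24 to 29 counts in WT and 82 to 105 in KD, and Pgr had at most 3. The epithelial genes Epcam and Krt19 had at most 7 counts in any library. The aldehyde dehydrogenase gene Aldh1a3 had at most 4 counts and Aldh1a1 had 8 to 17 counts in WT and 39 to 52 in KD. Genes of other tissues stood apart in the KD libraries. All 8 lung epithelial markers and 6 of 7 kidney tubule markers had each KD library above each WT library. The same held for 37.8% of all genes tested below. The lung markers summed to 70.6 to 81.6 normalized CPM in KD against 1.12 to 1.40 in WT. The kidney markers summed to 27.0 to 30.9 in KD against 9.24 to 9.64 in WT. Most of the WT sum was Cubn, at 8.12 to 8.36. Cubn was the 1 kidney marker lower in every KD library, at 5.86 to 6.49, so the sums understate the rise of the others. The part of these markers in the results below was not tested.

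To determine how the 10 genes differed between KD and WT, the 13497 genes that passed a filter on low counts were compared by edgeR's quasi-likelihood test with Benjamini-Hochberg adjustment. Levels are given as normalized CPM, counts as a share of the scaled library total with the usual CPM factor. A gene was called when it passed both thresholds of the study, 0.05 for the adjusted p-value and 2 for the fold change. Of the 10 genes, 8 were tested, and Pycard and Ripk3 had too few counts. Zbp1 and Il18 were called higher in KD, against 10.2% of all genes tested. None of the 8 was called lower, against 9.98% of all genes tested, and the number lower was also 0 at an unadjusted p under 0.05 and in DESeq2's calls. At an adjusted p under 0.05 alone, 6 of the 8 genes were higher (Zbp1, Il18, Casp4, Mlkl, Casp1 and Gsdmd) and 0 lower, against 36.7% of all genes higher and 36.7% lower. The same 6 genes had every KD library above every WT library, which held for 37.8% of all genes tested, and the opposite held for 0 of the 8 and for 37.8% of all genes. The median log2 fold change of the 8 genes was 0.64, and that of all genes tested was -0.0061. In bulk RNA, a change in the share of cells that express a gene and a change in the RNA of each cell cannot be told apart.

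**Figure D1:**
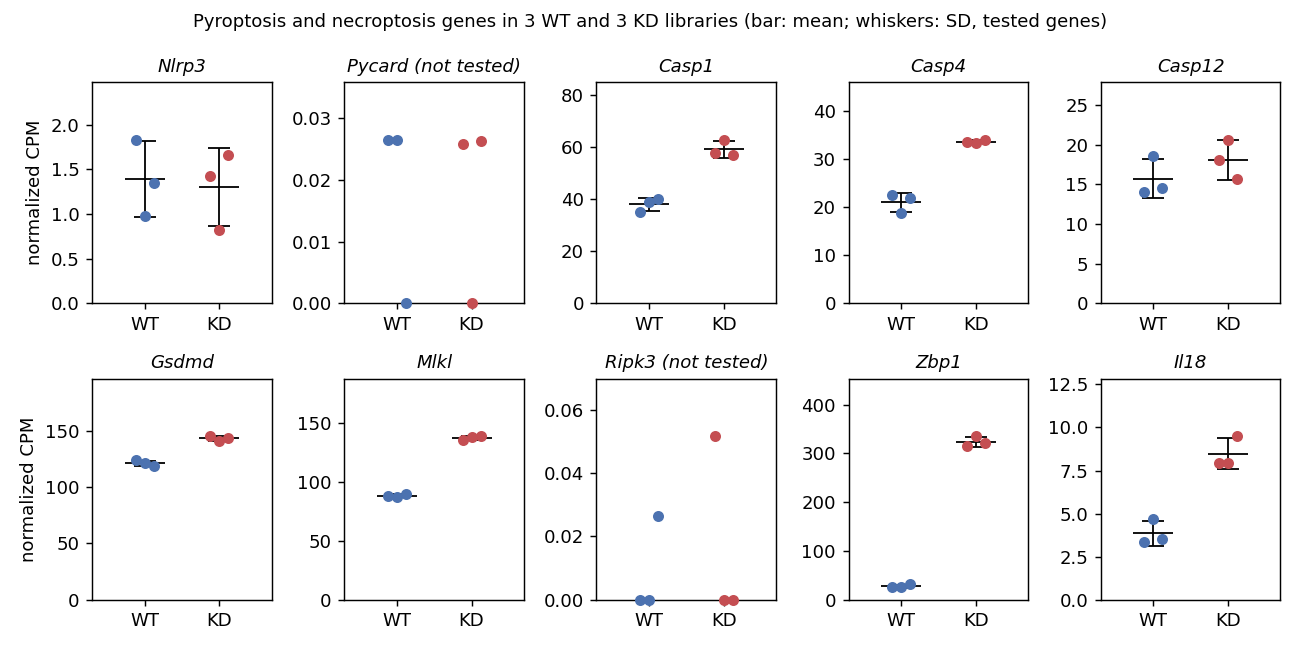
Normalized CPM (vertical axes, linear and starting at 0) of the 10 genes in the 3 WT (blue) and 3 KD (red) libraries, with the mean and SD for the 8 tested genes. Zbp1 rose from 25.2 to 31.3 in WT to 315 to 336 in KD, while the points of Nlrp3 and Casp12 overlap between the groups and Pycard and Ripk3 lie under 0.06.

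Zbp1, the sensor of Z-form nucleic acids that engages RIPK3 and can start necroptosis and pyroptosis alike, changed most of the 8 tested genes. It had 950, 967 and 1184 counts in the WT libraries and 12190, 12317 and 12181 in the KD libraries. These are 25.2, 25.6 and 31.3 normalized CPM in WT and 315, 336 and 321 in KD. The lowest KD library lay 284 normalized CPM above the highest WT library. The fold change was 11.8 (95% interval 11.0 to 12.8), a log2 fold change of 3.56 (adjusted p = 5.47e-34 and standard error 0.05, edgeR's quasi-likelihood test), and 235 of the 13497 genes tested had a log2 fold change at least as high. Zbp1 took 8.03% to 9.75% of the counts on the 10 genes in WT and 44.1% to 45.3% in KD. Without Zbp1 the summed level of the other 9 genes was 289 to 290.1 normalized CPM in WT and 400.0 to 405 in KD.

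Ripk3, the kinase that ZBP1 recruits, was close to absent from every library. It had 0, 0 and 1 counts in WT and 2, 0 and 0 in KD. A count of 0 allows up to 3 counts, which is 0.0776 to 0.0817 normalized CPM in these libraries and covers counting error only, so all 6 libraries were at or under that limit and no fold change is given. A difference in Ripk3 was therefore not detectable at this depth. Fitted without the filter, Ripk3 did not pass the test (adjusted p = 0.763, edgeR's quasi-likelihood test).

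Mlkl, the pore-forming executor of necroptosis and the substrate of RIPK3, was well counted. It had 3327, 3286 and 3388 counts in WT and 5261, 5067 and 5288 in KD, or 88.3 ± 1.31 against 138 ± 1.62 normalized CPM (SD, n = 3 each). The groups were 46.4 normalized CPM apart at their nearest libraries. Mlkl rose 1.56-fold (95% interval 1.47 to 1.65), a log2 fold change of 0.64 (adjusted p = 7.10e-16 and standard error 0.04, edgeR's quasi-likelihood test), under the fold change needed for a call.

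Gsdmd encodes gasdermin D, the executor of pyroptosis. It had 4660, 4571 and 4496 counts in WT and 5623, 5171 and 5447 in KD. The replicates lay close together, with coefficients of variation of 1.94% in WT and 1.58% in KD against 1.48% and 1.36% from counting alone. The rise was 1.18-fold (95% interval 1.12 to 1.25, adjusted p = 1.79e-06), the smallest of the 6 genes that passed the adjusted p-value. The ratio of Mlkl counts to Gsdmd counts, which depends on transcript length and is read here only between libraries, lay between 0.714 and 0.754 in WT and between 0.936 and 0.980 in KD. This and the other ratios given below were chosen after the values were seen and were not tested.

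Casp1, the inflammasome caspase, had 1323, 1466 and 1515 counts in WT and 2230, 2310 and 2162 in KD. It rose from 38.0 ± 2.59 to 59.2 ± 3.27 normalized CPM (SD, n = 3), 1.56-fold (95% interval 1.43 to 1.69, adjusted p = 1.61e-11, edgeR's quasi-likelihood test). Casp4, whose product senses cytosolic lipopolysaccharide, had 844, 709 and 823 counts in WT and 1296, 1224 and 1292 in KD. It rose 1.60-fold (95% interval 1.44 to 1.78, adjusted p = 5.43e-10). Every KD library was above every WT library for both genes. The ratio of Casp4 to Casp1 counts was 0.484 to 0.638 in WT and 0.530 to 0.598 in KD, so the KD ratios lay within the range of the WT ratios.

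Casp12 is a further inflammatory caspase, active in the mouse and truncated in most people. Its 529, 703 and 550 counts in WT and 697, 758 and 594 in KD overlapped, because WT replicate 2 was above 2 of the 3 KD libraries. The fold change was 1.15 (95% interval 0.992 to 1.33, adjusted p = 0.0832, edgeR's quasi-likelihood test) and did not pass. Its coefficients of variation, 15.9% in WT and 13.8% in KD, were well above the 4.10% and 3.83% of counting error. The result depended on single libraries, with an adjusted p of 0.00522 without WT replicate 2 and of 0.0192 without KD replicate 3 (log2 fold changes 0.34 and 0.30).

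Nlrp3, the sensor of the best known inflammasome, was counted at low levels, with 69, 37 and 51 counts in WT and 55, 30 and 63 in KD. The groups overlapped. The fold change was 0.938 with a 95% interval of 0.560 to 1.57 (adjusted p = 0.828), so changes within that interval, up or down, are not excluded. Pycard, the adaptor that joins NLRP3 to caspase-1, had 1, 1 and 0 counts in WT and 1, 0 and 1 in KD. All 6 libraries were thus under the limit of 3 counts, no fold change is given, and a difference was not detectable at this depth.

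Il18, the cytokine that caspase-1 matures, was the other gene called higher. It had 127, 177 and 133 counts in WT and 308, 292 and 361 in KD, or 3.86 ± 0.722 against 8.47 ± 0.893 normalized CPM (SD, n = 3 each). The nearest libraries of the groups were 3.27 normalized CPM apart. Il18 rose 2.19-fold (95% interval 1.75 to 2.75), a log2 fold change of 1.13 (adjusted p = 1.12e-07 and standard error 0.16, edgeR's quasi-likelihood test). The lower end of that interval is under the 2-fold threshold.

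**Figure D2:**
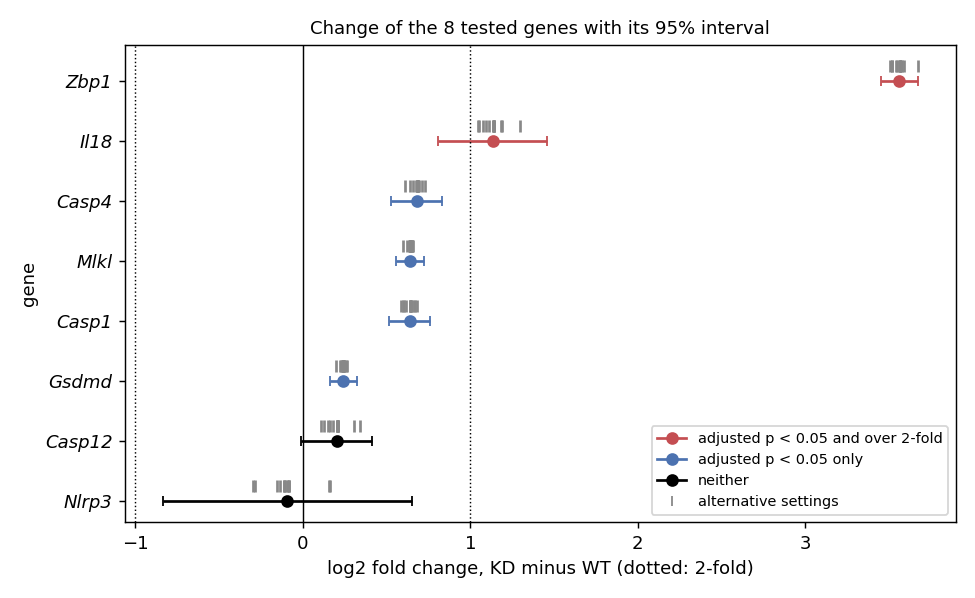
Log2 fold change, KD minus WT (horizontal axis), of the 8 tested genes with its 95% interval, coloured by whether the adjusted p-value and the 2-fold threshold (dotted lines) were passed, and the values under alternative settings as grey ticks. Zbp1 (3.56) stands apart from Il18 (1.13), from Casp4, Mlkl and Casp1 (0.68, 0.64 and 0.64) and from Gsdmd (0.24), and the intervals of Casp12 and Nlrp3 include 0.

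Since leukocytes express Casp1, Casp4, Nlrp3, Pycard and Il18 strongly, 17 leukocyte markers were examined, of which 16 were in the table. Their summed level was 88.5 to 100.4 normalized CPM in WT and 195 to 211 in KD. Of these, 5 were above 3 counts in KD and higher in every KD library (S100a8, S100a9, Cd14, Lyz2 and Cd74). Among those above 3 counts in WT, 0 were lower in every KD library. Of all genes tested, 37.8% were higher in every KD library and 37.8% lower, so the number higher is not read as a leukocyte result. The defining marker Ptprc had 5 to 13 counts in every library, and Csf1r, Fcgr1 and Cd3e had at most 3. Cd68 was well counted (mean 42.8 normalized CPM in WT and 47.2 in KD) and did not pass (adjusted p = 0.0901, edgeR's quasi-likelihood test). Most of the summed leukocyte level came from Cd68, S100a8 (33.0 and 95.2) and Cd14 (15.7 and 50.9). Of 6 endothelial markers, only Cdh5 was above 3 counts in KD and higher in every KD library. Their summed level was 0.714 to 1.19 normalized CPM in WT and 57.3 to 59.7 in KD. Nearly all of the KD sum was Cdh5, at 56.2 to 59.1, so it is the level of 1 gene. Pecam1 (mean 0.230 in WT and 0.324 in KD) and Vwf (0.406 and 0.397) stayed low. The part of the markers that were higher in the rise of Casp1, Casp4 and Il18 was not tested.

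To place the 10 genes in their pathways, 97 partner genes were grouped in 7 lists by role. Of these, 94 were in the table and 79 were tested. Among them 16 were called higher (20.3%) and 7 lower (8.86%), beside the 10.2% and 9.98% of all genes given above, and their median log2 fold change was 0.065.

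Among the inflammasome sensors and activators, 5 of 12 tested genes were called higher (41.7%) and 1 lower (8.33%). Of all genes tested, these shares were 10.2% and 9.98%. Aim2, the sensor of cytosolic DNA that also needs ASC, rose from 5.74 ± 0.569 to 34.1 ± 1.99 normalized CPM (SD, n = 3), a log2 fold change of 2.57 (adjusted p = 7.92e-23 and standard error 0.09, edgeR's quasi-likelihood test). The Naip genes, whose products bind bacterial flagellin and secretion system proteins, included 3 called higher, with log2 fold changes of 2.52 for Naip5, 2.22 for Naip6 and 1.22 for Naip2. Nlrp1b rose by 3.17 from 1 to 8 counts in WT to 23 to 39 in KD. Its log2 fold change was 4.79 without WT replicate 2, which holds 8 of the 10 WT counts, and 2.75 without WT replicate 1 or 3. Nlrp10 fell by 2.11 from 38 to 48 counts to 7 to 11. Naip and Nlrp1 genes are close paralogs, and how reads shared between copies were counted is not stated. Nlrc4, the partner through which NAIPs activate caspase-1, had 2, 0 and 0 counts in WT and 6, 0 and 0 in KD and was not tested. Of the genes not called, P2rx7, an ATP-gated channel upstream of NLRP3, and Panx1, a channel that releases ATP, were higher by 0.80 and 0.98 at adjusted p-values of 2.52e-14 and 1.18e-07.

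Among other gasdermins and genes of membrane rupture, 0 of 4 tested genes were called in either direction, also 0 by DESeq2. Of all genes tested, 10.2% were called higher and 9.98% lower. At an unadjusted p under 0.05, 1 gene of the list was higher and 0 lower. That gene was Ninj1, which ruptures the membrane after the pores have formed. It rose from 89.4 ± 2.33 to 102 ± 5.39 normalized CPM, a log2 fold change of 0.19 (adjusted p = 0.000313, edgeR's quasi-likelihood test). Gsdme, another pore-forming gasdermin, had 358, 359 and 424 counts in WT and 318, 349 and 309 in KD, with a log2 fold change of -0.23 (95% interval -0.47 to 0.020, adjusted p = 0.0924). The Gsdma and Gsdmc genes other than Gsdmc4 had at most 6 counts in any library.

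Around Il18, Il1rn and Il18bp, which restrain IL-1 family cytokines, had larger log2 fold changes than Il18 itself. Il1rn, the IL-1 receptor antagonist, rose from 163 to 206 counts in WT to 1889 to 1938 in KD, a log2 fold change of 3.35 (adjusted p = 2.19e-27, edgeR's quasi-likelihood test). Il18bp, the soluble decoy of IL-18, had 109, 95 and 116 counts in WT and 439, 455 and 572 in KD, a change of 2.19 (standard error 0.15, adjusted p = 2.40e-15). The ratio of Il18bp to Il18 counts was 0.537 to 0.872 in WT and 1.43 to 1.58 in KD, so every KD ratio was above every WT ratio. Il1r1, the signalling IL-1 receptor, was called lower, from 36.9 ± 3.12 to 13.1 ± 1.04 normalized CPM (log2 fold change -1.49). Il1b had 16, 19 and 7 counts in WT and 36, 22 and 24 in KD (log2 fold change 0.95, 95% interval -0.082 to 1.99, adjusted p = 0.0911) and did not pass. In all, 2 of 8 tested genes of this list were called higher (25%) and 1 lower (12.5%), beside 10.2% and 9.98% of all genes. At an adjusted p under 0.05 alone, 5 of the 8 were higher and 1 lower, beside 36.7% of all genes in each direction. The receptor genes Il18rap and Il1rap, among those higher but not called, rose by 0.69 and 0.56 on the log2 scale.

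Among the other caspases and the Serpin inhibitors, 3 of 9 tested genes were called higher (33.3%) and 3 lower (33.3%). Of all genes tested, these shares were 10.2% and 9.98%. Casp6, an apoptotic caspase, fell by 1.74 on the log2 scale, from 1870 to 2037 counts in WT to 555 to 612 in KD. Casp8, which blocks necroptosis by cleaving RIPK1 and RIPK3, had 2304 to 2564 counts in WT and 2141 to 2505 in KD (log2 fold change -0.090, 95% interval -0.21 to 0.031, adjusted p = 0.172, edgeR's quasi-likelihood test). Without KD replicate 2 its adjusted p was 0.0195, at a change of -0.16. Serpinb9, an inhibitor of granzyme B, and Serpinb1b rose by 2.32 and 2.63, and Serpinb1a, which restrains inflammatory caspases, fell by 2.05 from 20 to 33 counts to 3 to 11, and by 2.71 without KD replicate 2. Serpinb1a and Serpinb1b are paralogs.

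Upstream of MLKL, 2 of 19 tested receptors, adaptors and kinases of necroptosis were called higher (10.5%) and 0 lower, also 0 lower by DESeq2. Of all genes tested, 10.2% were called higher and 9.98% lower, so the share higher was near that of all genes. At an unadjusted p under 0.05, 6 genes of the list were higher and 6 lower. Tlr3, the receptor of double-stranded RNA that signals through TRIF, rose from 593 to 639 counts in WT to 3083 to 3465 in KD (log2 fold change 2.41, adjusted p = 1.17e-26, edgeR's quasi-likelihood test). Cflar, whose product cFLIP holds caspase-8 in a form that prevents necroptosis, rose by 1.13 from 71.5 ± 2.30 to 156 ± 5.73 normalized CPM. Ripk1 had 2908 to 3272 counts in WT and 2855 to 3156 in KD, a log2 fold change of -0.057 (95% interval -0.16 to 0.048, adjusted p = 0.325). Without WT replicate 1 the change of Ripk1 was -0.11 with an adjusted p of 0.0484. Fadd, the adaptor that binds caspase-8, was higher by 0.21 (95% interval 0.018 to 0.40, adjusted p = 0.0455), but its adjusted p was between 0.0553 and 0.162 without WT replicate 1, WT replicate 2, WT replicate 3, KD replicate 2 or KD replicate 3.

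The list of ubiquitin and ESCRT genes that restrain necroptosis held 17 tested genes. Of these, 0 were called higher and 1 was called lower (5.88%), beside 10.2% and 9.98% of all genes. DESeq2 also called 0 of them higher, and 3 were higher at an unadjusted p under 0.05. Ikbke, a kinase that phosphorylates RIPK1, was the gene called lower, from 73.6 ± 6.80 to 34.0 ± 1.84 normalized CPM (log2 fold change -1.11, adjusted p = 1.20e-17, edgeR's quasi-likelihood test). At an adjusted p under 0.05 alone, 11 of the 17 were lower and 3 higher, beside 36.7% of all genes tested in each direction, and the median log2 fold change was -0.12. The 3 subunits of the linear ubiquitin ligase did not move one way, with Rnf31 and Rbck1 higher by 0.67 and 0.61 and Sharpin lower (-0.52).

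Of 10 transcription factors known to act on these genes, 4 were called higher (40%) and 1 lower (10%). Of all genes tested, these shares were 10.2% and 9.98%. Irf7, Stat2 and Irf9, which carry the interferon response, rose by 2.67, 2.11 and 1.04 on the log2 scale. Irf7 went from 2615 to 2775 counts in WT to 16251 to 17728 in KD (adjusted p = 1.00e-34, edgeR's quasi-likelihood test). Irf9 lay just above the 2-fold threshold and was at 0.98 without WT replicate 1. Irf1 and Irf2, which bind the promoters of caspase and gasdermin genes, rose by 0.91 and 0.63 (adjusted p = 1.10e-18 and 1.03e-09), under a fold change of 2. Irf8, which drives the Naip genes in myeloid cells, was called lower, from 438 to 476 counts to 181 to 259 (log2 fold change -1.06), and was at -0.96 without KD replicate 2.

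**Figure D3:**
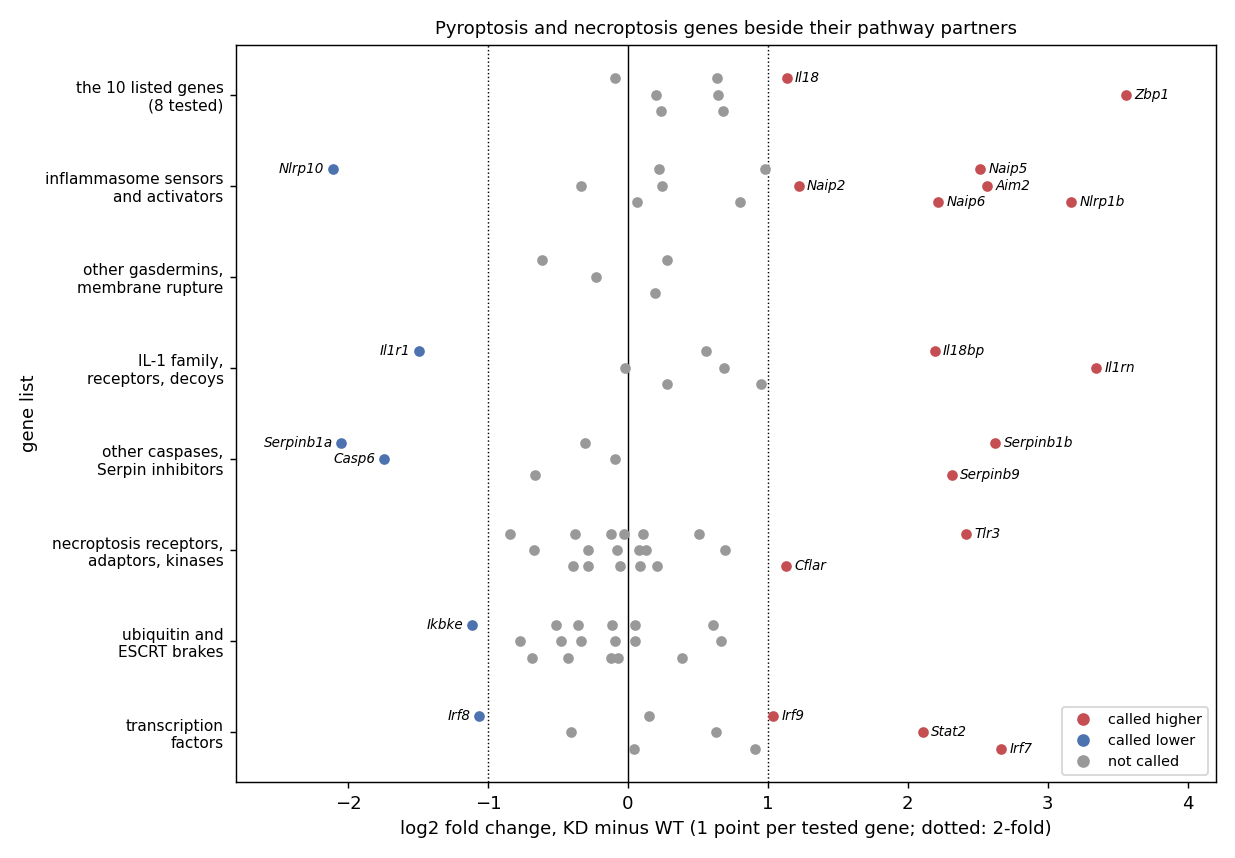
Log2 fold change, KD minus WT (horizontal axis), of the tested genes reported here, in rows for the 10 listed genes and the 7 partner lists, with genes called higher in red, called lower in blue and not called in grey, and the 2-fold threshold dotted. Zbp1 (3.56) and Il1rn (3.35) lie farthest to the right, and most genes of the necroptosis receptor and ubiquitin lists lie within the 2-fold lines.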

How the data were processed

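The authors trimmed adapters, mapped reads with HISAT2 to hg19 according to the paper and deposited raw counts per gene, without normalization. The submitters' processing notes name hg38, HISAT2, featureCounts and DESeq2. Both hg19 and hg38 are human genome builds, which the mouse gene names of the table contradict. Which annotation was used, and whether strand was, is not given in the sources used here, so overlapping and near-identical genes may share counts. Columns were assigned to samples by the descriptions in the labels, and the number of columns not used was 0.

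The tests ran in edgeR 4.0.16 (R 4.3.3) on all genes that passed filterByExpr (minimum count 10, minimum total 15), with TMM scaling, in a quasi-likelihood fit on the group alone, with Benjamini-Hochberg adjustment over 13497 genes. DESeq2 1.42.0 was an alternative, with other scalings, filters and thresholds, a replicate block and each library left out in turn. Standard errors were derived from the log2 fold change and the F statistic. Intervals cover the spread between libraries, which may be technical, since no source says that they came from separate cultures. The pipeline was tested on simulated data. No gene lengths of the table's gene models were used, so levels are not compared between genes.

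The members and lists were chosen with earlier results of these data known. Named are the 10 genes, the partners Ripk1, Casp8, Fadd, Aim2, Nlrc4, Gsdme, Ninj1, Il1b, Il18bp, Irf1 and Irf2, and the partners past both thresholds that are reported here. Some genes that are counted in the lists are not reported here by name or drawn. Other partners (P2rx7, Panx1, Il18rap, Il1rap, Rnf31, Rbck1, Sharpin and the Gsdma and Gsdmc genes) were named after their values were seen. No sequences are printed, since a mouse reference was not used here.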

Additional observations from a re-analysis of the deposited data

How the results depend on the processing

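Of the genes tested, 2 of 8 (Casp12 and Nlrp3) changed their direction or their side of a threshold in at least 1 of 13 alternatives, and the other 6 did in none. The log2 fold change of Nlrp3 ranged from -0.30 to 0.16 over the fits that left out a library, positive without WT replicate 1 and without KD replicate 2, and the cause was not tested. Zbp1 and Il18 were called higher in every alternative, with ranges of 3.51 to 3.67 and 1.05 to 1.30. Without the fold-change threshold, by construction, the genes higher numbered 6 and the partners higher and lower 34 and 27. Against a fold change of 1.5, 2 of the genes, 20 partners higher and 9 lower were past the threshold. DESeq2's Wald test called 2 of the genes and 18 partners higher. With the replicate number as a block (replicate block), 2 of the genes, 16 partners higher and 7 lower were called, the same numbers as without it, while Casp12 passed (adjusted p = 0.0430, edgeR's quasi-likelihood test) and Fadd did not (0.0510). Deviations of libraries with the same number correlated at -0.0178 to 0.0041 over genes, and those with unlike numbers at -0.0164 to 0.0345. With 3 libraries per group, this cannot settle whether libraries of the same number shared a batch. Among 31 named partners tested, 6 changed their side of a threshold in at least 1 alternative. With at least 10 counts in every library, 13 partners were called higher and 5 lower, since 5 called genes have fewer. Depth limits Pycard, Ripk3 and Nlrc4, for which changes could not be detected.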
